A study of Arabidopsis thaliana with 2 samples.

Results

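Cold-regulated (COR) and related drought-induced genes encode hydrophilic proteins, many of them small, that accumulate when a plant is chilled, dried or supplied with abscisic acid (ABA). In this RNA sequencing study of Arabidopsis thaliana shoots, 10 such genes were followed in the whitening mutant wn1 and in its wild-type background: COR15A, COR15B, KIN1, KIN2, RD29A, RD29B, RAB18, COR47, ERD10 and LTI30. They were taken by gene identifier from a table of 33565 genes, and all 10 were found and passed the filter on low values, which kept 18788 genes with a mean of at least 1 FPKM (mapped fragments scaled to transcript length and to the mapped total of the library). The groups were wn1, described in the labels as a whitening mutant in Col-0, and wild type Col-0. Both were shoot material (the tissue label adds cotyledon) of seedlings 7 days old. The seedlings were grown on half-strength MS medium at 22 °C with 16 h of light and 8 h of dark. The labels give no stress treatment. There was 1 library per genotype, so the values below have no replicate error, no p-value is given, and differences describe these 2 libraries. The sources used here do not name the gene altered in wn1, the number of plants pooled or the time of day at harvest.

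COR genes are switched on through 2 short promoter elements. The C-repeat or dehydration-responsive element (CRT/DRE) is bound by the CBF/DREB1 factors, some of which cold induces. It is also bound by the DREB2 factors, which act in drought and heat. The ABA-responsive element (ABRE) is bound by bZIP factors of the ABF/AREB group, which ABA activates through its receptors, clade A type 2C phosphatases and SnRK2 kinases. Among the protein products, RAB18, COR47, ERD10 and LTI30 are dehydrins, disordered proteins that shield membranes and other proteins from water loss. COR15A and COR15B are imported into the chloroplast, where they protect membranes during freezing.

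These elements were read from the 500 bases before the start codon of each gene in the RefSeq genome TAIR10.1. The CRT/DRE core CCGAC, on either strand and with overlapping matches counted once, was present in all 10 genes. Among 27438 nuclear protein-coding genes with such a window, 23.3% held it. The ABRE core ACGTG, also on either strand, was present in 9 of the 10 genes, against 34.8% of all genes. ERD10 was the exception. Both cores together were found in the same 9 genes and in 9.07% of all genes. The evening element AAAATATCT, a clock-related motif, was present in 5 of the 10 and in 4.02% of all genes. A match is a string of letters, and was not tested for binding. For each gene the CRT/DRE match nearest to the start codon is shown with 10 bases on each side, 5′ to 3′ on the strand of the gene, since this core is the feature that all 10 share. Capitals mark the core, which in LTI30 lies on the opposite strand. Of the matches shown, only those of RD29B and LTI30 lie before the annotated gene in RefSeq. The others lie inside the annotated gene, between its start and the start codon.

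COR15A (chr2:17712218-17712242, minus strand): aatttcatggCCGACctgctttttt

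COR15B (chr2:17710124-17710148, minus strand): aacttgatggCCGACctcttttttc

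KIN1 (chr5:5209804-5209828, plus strand): taaatagctaCCGACataaggcaaa

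KIN2 (chr5:5211771-5211795, plus strand): taaaaagctaCCGACataaggcaaa

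ERD10 (chr1:7089363-7089387, minus strand): caccgaccgaCCGACgtaaaagaaa

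COR47 (chr1:7085918-7085942, minus strand): tattcatctaCCGACttcaagaaat

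RD29A (chr5:21240711-21240735, plus strand): aaagatcaagCCGACacagacacgc

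RD29B (chr5:21236875-21236899, plus strand): taaacgtggaCCGACtaaaactaaa

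RAB18 (chr5:26519345-26519369, minus strand): aaacaccacgCCGACattttctgct

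LTI30 (chr3:18940624-18940648, plus strand): cttttacgatGTCGGccaacacgta

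All of the 10 genes but COR15A and COR15B stood above 100 FPKM in both libraries, in plants for which the labels give no cold or drought treatment. The median level of the 10 was 306 FPKM in wn1 and 364 FPKM in wild type, against 11.3 and 11.2 FPKM over all measured genes in wn1 and wild type. In wn1, 8 of the 10 stood above 100 FPKM, as did 1486 of the 18788 measured genes, and in wild type 9 did, as did 1418 measured genes. Every member had a lower FPKM in wn1 than in wild type, although the smallest difference, that of KIN2, came to 0.00 when the libraries were rescaled to nuclear protein-coding genes. Over all measured genes 47.1% were lower in wn1. The differences below are log2 of (wn1 FPKM + 1) over (wild-type FPKM + 1). Only COR15A was at least 2-fold lower, 1 of 10, where 3.65% of all measured genes were, so that this count rests on a single gene. None was at least 2-fold higher, where 3.67% were. At 1.5-fold, a size chosen after the values were seen, 5 of 10 were lower (COR15A, ERD10, RD29A, KIN1 and RD29B), against 9.94% of all measured genes. The median of the members was -0.51, and that of all measured genes was 0.03 with quartiles of -0.25 and 0.31. The summed level of the members was 3736 FPKM in wn1 and 5141 FPKM in wild type, a ratio of 0.727. In whole shoots, fewer cells that express a gene and less RNA per cell cannot be told apart.

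**Figure D1:**
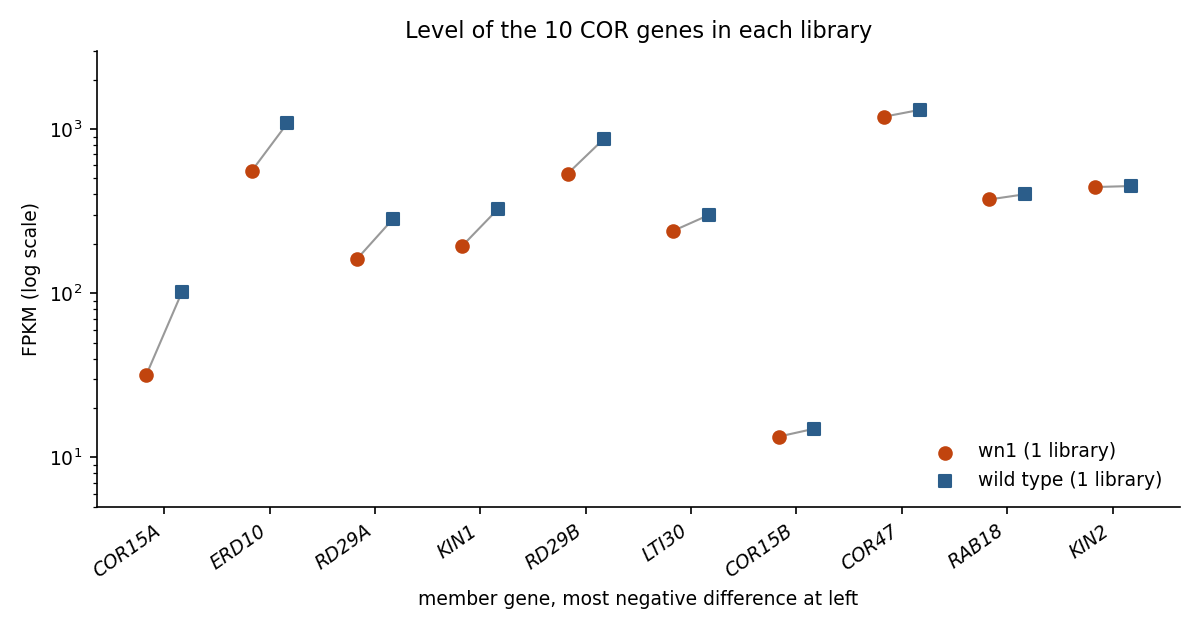
FPKM of each COR gene (log axis) in the wn1 library (circles) and the wild-type library (squares), 1 library each and so without error bars. COR15A has the steepest line, with 31.7 FPKM in wn1 and 102 FPKM in wild type, and KIN2 the flattest, with 443 and 449 FPKM in wn1 and wild type.

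**Figure D2:**
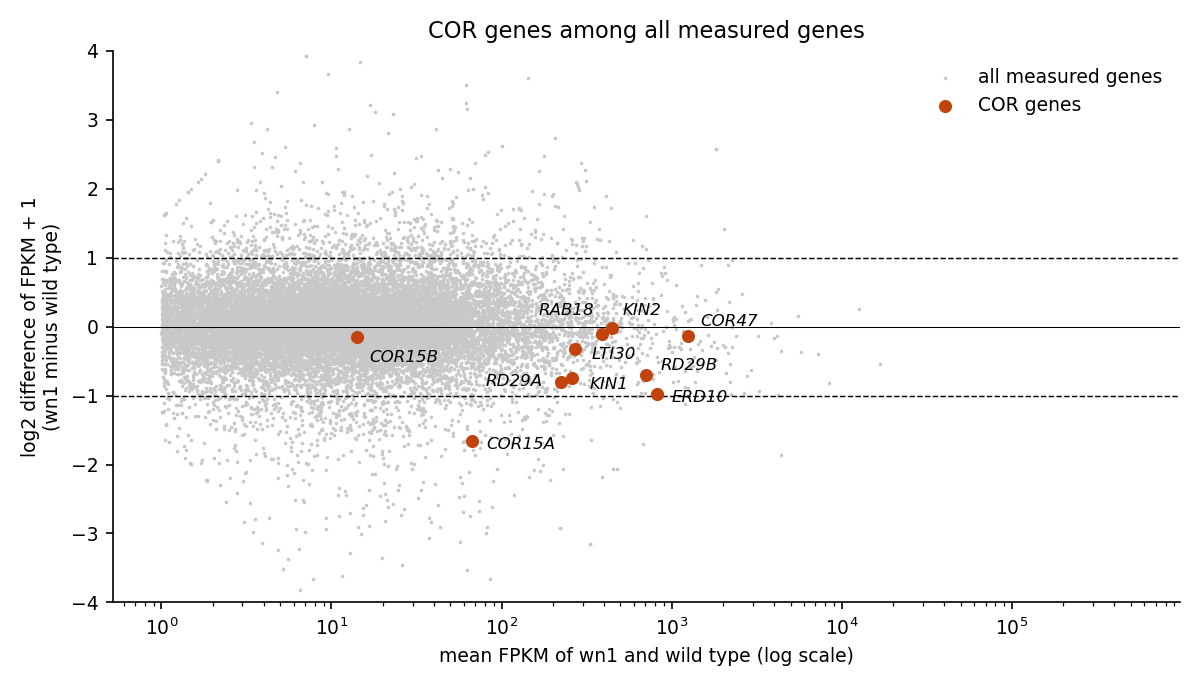
Log2 difference of FPKM + 1 (wn1 minus wild type) against mean FPKM (log axis) for 18788 measured genes in grey, with the COR genes in colour; dashed lines mark 2-fold, and 19 genes lie beyond the vertical axis. COR15A lies beyond the lower line at -1.65 and ERD10 just inside it at -0.97.

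Of the members, 8 formed adjacent gene pairs, and in most pairs the partners differed unequally between the libraries. COR15A and COR15B, KIN1 and KIN2, ERD10 and COR47, and RD29A and RD29B are neighbours on the same strand, with no annotated gene between the partners of any of the 4 pairs in RefSeq. In 3 of the 4 pairs the first-named partner was at least 1.5-fold lower in wn1 and the other lay within 1.5-fold.

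COR15A (AT2G42540), whose product stabilises chloroplast membranes in the cold, had 31.7 FPKM in wn1 and 102 FPKM in wild type. The wn1 level was 0.311 of the wild-type level, a log2 difference of -1.65, and only 209 measured genes (1.11%) had a more negative one. Its neighbour COR15B (AT2G42530), which encodes a closely related chloroplast protein, had 13.4 FPKM in wn1 and 14.9 FPKM in wild type, a difference of -0.15. COR15A therefore stood 2.37 times as high as COR15B in wn1 and 6.83 times as high in wild type. The transcripts of the 2 genes share no stretch of 50 bases. COR15B overlaps AT2G42520 on the opposite strand in RefSeq, which had 14.1 FPKM in wn1 and 11.1 FPKM in wild type, and reads of the overlap cannot be assigned without a stated strand. COR15B was the least abundant member in both libraries.

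KIN1 (AT5G15960) and KIN2 (AT5G15970) encode very similar small proteins that cold and ABA induce. KIN1 had 195 FPKM in wn1 and 327 FPKM in wild type, a difference of -0.75. KIN2 had 443 FPKM in wn1 and 449 FPKM in wild type, a difference of -0.02. KIN1 stood at 0.439 of the KIN2 level in wn1 and at 0.728 in wild type. Their coding sequences are 95.0% identical over 201 bases, and 1.28% of the 50-base words of the KIN1 transcript also occur in KIN2, against 1.43% of those of KIN2 in KIN1. The sources used here do not say how the authors divided reads between such relatives, so the split within this pair is uncertain. The CRT/DRE site of the pair was alike, as the sequences above show. Upstream of KIN1 there were 3 ABRE cores and upstream of KIN2 there were 4. The ABRE cores nearest to the start codon are shown, because here the upstream windows of the pair differ in number: the first 2 resemble each other, and KIN1 has no match like the third. The core, in capitals, lies in each case within CACGTG, which reads the same on both strands. These ABRE cores also lie inside the annotated genes.

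KIN1, 138 bases before the start codon (chr5:5209844-5209868, plus strand): aaatgtaatcCACGTggttttagat

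KIN2, 145 bases before the start codon (chr5:5211811-5211835, plus strand): aaacgtaatcCACGTggtttcagat

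KIN2, 128 bases before the start codon (chr5:5211828-5211852, plus strand): tttcagattaCACGTggcaccacac

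Among the dehydrins, ERD10 (AT1G20450) had 554 FPKM in wn1 and 1088 FPKM in wild type. Its ratio of 0.510 and difference of -0.97 placed it just short of 2-fold, and 3.86% of measured genes had a more negative value. Its neighbour COR47 (AT1G20440), the most abundant member, had 1189 FPKM in wn1 and 1309 FPKM in wild type, a difference of -0.14. COR47 ranked 65 among all measured genes in both libraries, while ERD10 ranked 181 in wn1 and 81 in wild type. LTI30 (AT3G50970), a dehydrin known for strong induction by cold, had 240 FPKM in wn1 and 300 FPKM in wild type, a difference of -0.32. RAB18 (AT5G66400), a dehydrin long used as a marker of the ABA response, had 372 FPKM in wn1 and 401 FPKM in wild type, a difference of -0.11. RAB18 overlaps AT5G66410 on the opposite strand in RefSeq, a gene with 17.5 FPKM in wn1 and 13.0 FPKM in wild type.

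RD29A and RD29B encode related hydrophilic proteins whose promoters are standard reporters of stress signalling, RD29A for cold and drought and RD29B for ABA. RD29A (AT5G52310) had 162 FPKM in wn1 and 283 FPKM in wild type, a difference of -0.80. RD29B (AT5G52300) had 536 FPKM in wn1 and 868 FPKM in wild type, a difference of -0.70. This was the 1 pair whose partners differed by a similar amount, with RD29A minus RD29B at -0.11 log2 units. The same subtraction gave -0.73 for KIN1 minus KIN2, -0.83 for ERD10 minus COR47 and -1.504 for COR15A minus COR15B. The motif counts of RD29A and RD29B differed. RD29A held 4 CRT/DRE cores and 1 ABRE core, and RD29B held 1 CRT/DRE core and 4 ABRE cores.

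**Figure D3:**
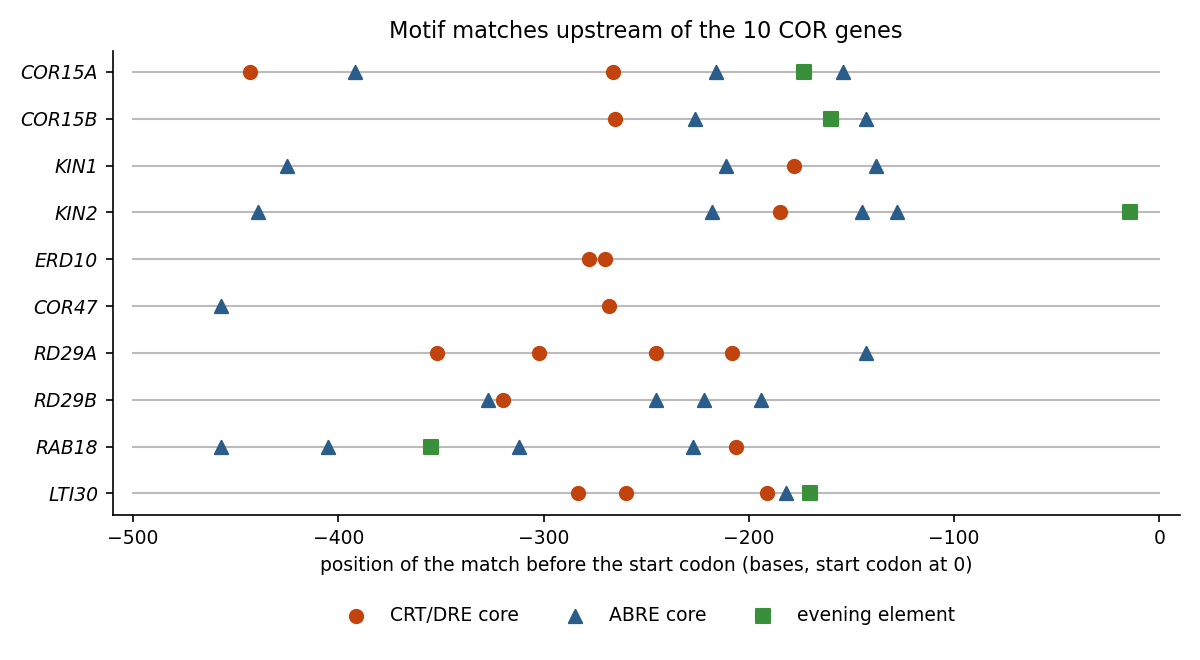
Position of each motif match in the 500 bases before the start codon (0 on the horizontal axis) of the 10 COR genes, with partners of an adjacent pair on neighbouring lines. RD29A has 4 CRT/DRE cores and RD29B has 1, while ERD10 has no ABRE core.

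The members with larger and with smaller differences overlapped in their number of matches, and a link between number and difference was not tested. In the set of 5 that were lower by 1.5-fold or more, COR15A and ERD10 held 2 CRT/DRE cores each, RD29A held 4, and KIN1 and RD29B held 1 each. Of the other 5, LTI30 held 3 and COR15B, COR47, RAB18 and KIN2 held 1 each. Within the pairs, COR15A, ERD10 and RD29A each held more CRT/DRE cores than their neighbour and had the more negative difference. For RD29A minus RD29B this came to only -0.11 log2 units. KIN1 and KIN2 held equal numbers, and KIN1 minus KIN2 was -0.73 log2 units. ABRE cores numbered between 0 (ERD10) and 4 (RD29B) in the first set and between 1 (COR47 and LTI30) and 4 (RAB18 and KIN2) in the second.

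The order of the levels was nearly the same in both libraries. It ran COR47, ERD10, RD29B, KIN2, RAB18, then LTI30 and KIN1, then RD29A, COR15A and COR15B in wn1. KIN1 stood below LTI30 in wn1, at 195 against 240 FPKM, and above it in wild type, at 327 against 300 FPKM. With 1 library each, whether neighbours in this order differ beyond the spread between plants is unknown.

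Of the activators of the CRT/DRE, the CBF/DREB1 genes were scarce in both libraries and DREB2A was not. CBF2 (AT4G25470), the 1 of the 6 CBF/DREB1 genes that passed the filter, had 3.17 FPKM in wn1 and 1.17 FPKM in wild type, a difference of 0.94. CBF1 had 0.294 FPKM in wn1 and 0.268 FPKM in wild type, and CBF3 had 0.232 and 0.0943 FPKM in wn1 and wild type. CBF4 was listed at 0 in wn1 and at 0.284 FPKM in wild type, and DDF1 and DDF2 were listed at 0 in both. The least abundant member, COR15B at 13.4 FPKM in wn1 and 14.9 FPKM in wild type, thus stood above every CBF/DREB1 gene in both libraries. DREB2A, a drought and heat activator, had 21.7 FPKM in wn1 and 17.5 FPKM in wild type, a difference of 0.29. DREB2B had 0.968 and 1.23 FPKM in wn1 and wild type, and DREB2C had 0.184 and 0.0559 FPKM.

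Of 9 genes listed as upstream regulators of CBF, 8 were measured, all within 2-fold, with a median of 0.20 and 7 above 0. The list was not split into activators and repressors. ICE1, a bHLH activator of CBF genes and the most abundant of this list, had 34.9 FPKM in wn1 and 27.5 FPKM in wild type. None of the measured upstream genes or DREB factors was lower in wn1 by 2-fold.

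The ABRE-binding factors differed in level and in direction. All 6 lay within 2-fold, with 3 below 0, 3 above 0 and a median of -0.03. ABF3 had 363 FPKM in wn1 and 389 FPKM in wild type, a difference of -0.10. ABF2 had 94.5 and 150 FPKM in wn1 and wild type, a difference of -0.66, while ABF4 went the other way with 97.1 and 72.6 FPKM, a difference of 0.41. AREB3 had 16.2 and 15.7 FPKM in wn1 and wild type, ABI5 had 5.38 and 7.16 FPKM, and ABF1 had 1.47 and 1.31 FPKM.

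Of the core ABA signalling genes, the clade A phosphatases were lower in wn1 most uniformly. These enzymes hold the pathway off and are themselves induced by ABA. Of 9 measured, 8 lay below 0 with a median of -0.63, and 1 was at least 2-fold lower. That gene, HAI2, had 19.5 FPKM in wn1 and 51.6 FPKM in wild type, a difference of -1.36. ABI1, the most abundant, had 254 and 372 FPKM in wn1 and wild type, a difference of -0.55. The 3 SnRK2 kinases lay within 2-fold, with a median of -0.15, and SNRK2.2, the highest in mean level, had 44.5 FPKM in wn1 and 30.4 FPKM in wild type.

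Other targets of the same pathways showed wider differences than the members. All 17 genes of a list of other drought and ABA responsive genes were measured. With a median of -0.55 and 14 genes below 0, this list held 6 genes lower in wn1 by 2-fold or more and 0 higher by as much. LTP4 and LTP3, lipid transfer proteins, had 8.80 and 16.1 FPKM in wn1 against 65.9 and 115 FPKM in wild type, with differences of -2.77 and -2.75. RD20, a caleosin, had 58.8 FPKM in wn1 and 252 FPKM in wild type, a difference of -2.08. GOLS2, a galactinol synthase of raffinose synthesis, had 35.6 and 152 FPKM in wn1 and wild type. P5CS1, which makes proline and was the most abundant of the list, had 459 FPKM in wn1 and 801 FPKM in wild type, a difference of -0.80.

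Of 8 other cold-regulated genes, 7 were measured, with a median of -0.26, 5 below 0, 1 past 2-fold in each direction. COR413IM1, a protein of the chloroplast inner envelope, had 9.14 FPKM in wn1 and 55.7 FPKM in wild type, a difference of -2.48. COR27, a cold- and clock-regulated gene, had 7.40 FPKM in wn1 and 0.460 FPKM in wild type, a difference of 2.52. COR413PM1, the plasma membrane relative of COR413IM1 and the most abundant of the list, had 871 and 1046 FPKM in wn1 and wild type. Of 6 further dehydrins, 5 lay below 0 with a median of -0.26. AT2G21490 had 3.03 FPKM in wn1 and 12.1 FPKM in wild type, a difference of -1.70, XERO1 had 39.7 and 17.4 FPKM in wn1 and wild type, a difference of 1.14, and ERD14, the most abundant, had 656 and 1038 FPKM.

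**Figure D4:**
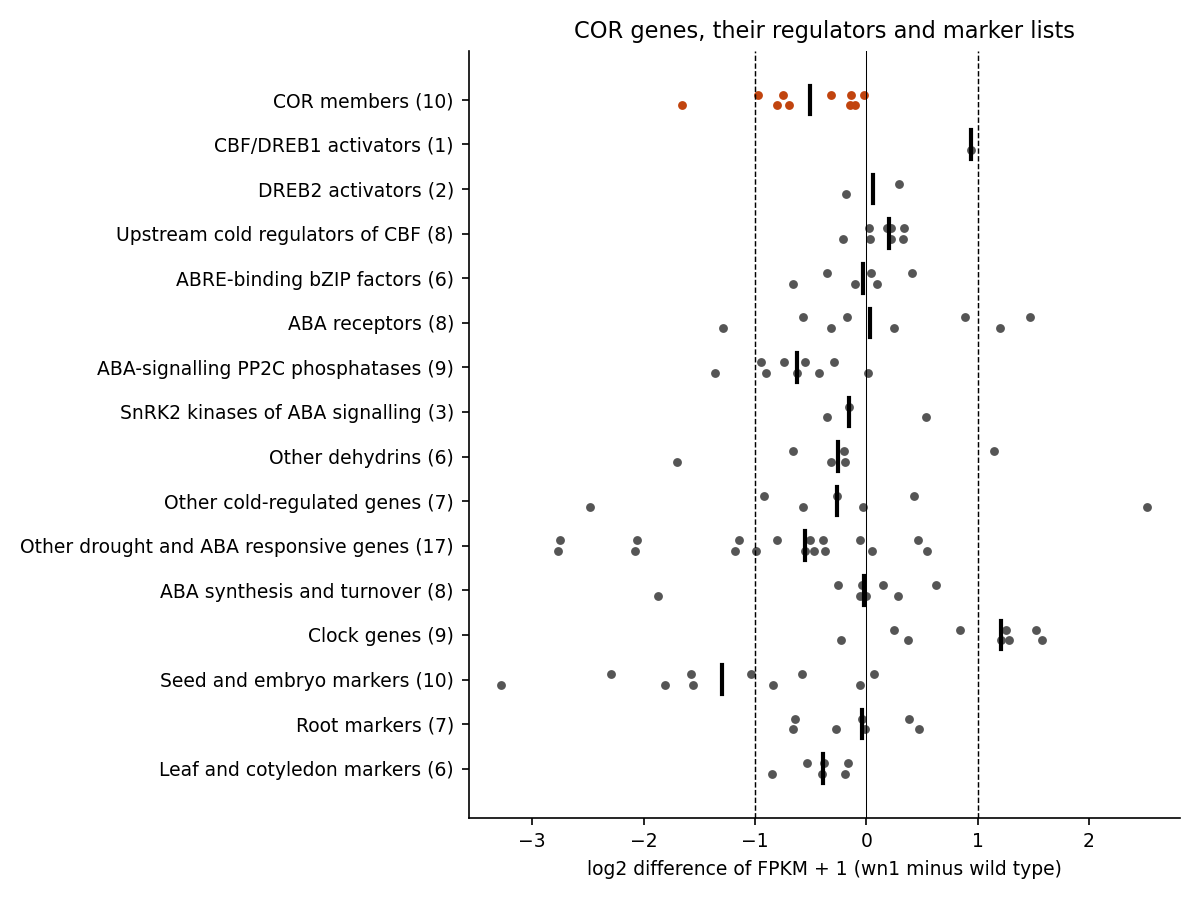
Log2 difference of FPKM + 1 (wn1 minus wild type) of each measured gene (dots) by list, with the list median (bar), the number measured in brackets and dashed lines at 2-fold. The COR genes have a median of -0.51 and the ABA-signalling phosphatases one of -0.63, while the clock genes have one of 1.21.

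Markers of stage, time of day and tissue were measured alongside. Several COR genes are also active in maturing seeds, and seed and embryo markers were lower in wn1. Of 12 listed, 10 were measured, 6 were at least 2-fold lower and 9 lay below 0, with a median of -1.30, and their summed level was 101 FPKM in wn1 and 262 FPKM in wild type. None of the 12 was listed at 0 in either library. The clock gates COR genes over the day, and of 9 measured clock genes 5 were at least 2-fold higher in wn1, with a median of 1.21. The morning gene LHY had 532 FPKM in wn1 and 222 FPKM in wild type, and the day-phased genes PRR9 and GI had 48.3 and 22.8 FPKM in wn1 against 15.5 and 8.77 FPKM in wild type. ELF3 and TOC1 had 23.5 and 17.5 FPKM in wn1 against 7.56 and 9.30 FPKM in wild type. CCA1 had 266 FPKM in wn1 and 224 FPKM in wild type, a difference of 0.25. In all, 8 of the 9 lay above 0 and 1, ELF4, lay below it. The part of seed transcripts and of the time of day in the COR differences was not tested. Of the leaf and cotyledon markers, which the tissue label calls for, RBCS1A was the highest, at 13647 FPKM in wn1 and 19784 FPKM in wild type, and the stomatal gene FAMA the lowest, at 6.80 FPKM in wn1 and 7.89 FPKM in wild type. These 6 genes had a median of -0.39, and all 6 lay below 0. Root markers were present in both libraries, with 129 FPKM in wn1 and 134 FPKM in wild type summed over 8 genes. They ran from NRT2.1, at 0.127 and 0.426 FPKM in wn1 and wild type, to PHO1, the highest in mean level, at 38.1 and 28.9 FPKM. The median of all measured genes was 11.3 FPKM in wn1 and 11.2 FPKM in wild type. Whether root material was included was not tested. Common reference genes lay between -0.28 (SAND) and 0.85 (ACT2), with a median of 0.13 over 5 genes. Only the relative depth of the libraries could be read from the table, from the spacing of its low values, and it was 1.22 times as large in wn1 as in wild type. With the total depth unknown, no counting intervals are given.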

How the data were processed

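Total RNA of the wn1 and wild-type shoots was extracted with a column kit and made into Illumina libraries, per the labels' protocols. The authors deposited FPKM values in 1 table with a row for every annotated gene. The submitters' processing notes name Bowtie and TAIR10. For the read counter, strand setting, versions and filters nothing is stated in the sources used here. Columns were assigned to the samples by their names (WN and WT), and 2 further columns of other material were not used.

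The difference is log2((wn1 + 1)/(wild type + 1)) of the deposited FPKM, and the pseudocount of 1 understates differences of low genes. The filter kept rows averaging 1 FPKM or more over both libraries, and a gene was counted as lower or higher at 2-fold. All 10 members and all genes of the CBF/DREB1, DREB2 and ABRE-binding lists are named; from other lists come genes past 2-fold (at most 4) and the most abundant gene, with some left out. AT2G42520 and AT5G66410, which overlap members, are named as well, as are some further clock and marker genes. The members, lists and rules were chosen with earlier results of these data known, and the 3 motifs and their window after the values were seen. The comparison was checked on simulated data, a check of the calculation and not of the spread between plants.

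Sequences, start codons and gene positions are from RefSeq TAIR10.1, in which the table's IDs of all 10 members were found. The table has no coordinates, and TAIR10.1 coordinates are used only with TAIR10.1 sequence. A window ends at the base before the start codon of the transcript with the longest coding sequence, since many annotated transcript starts there lie far upstream. Python 3.11.15, numpy 2.4.6, pandas 2.3.3, scipy 1.17.1 and matplotlib 3.10.9 were used. Depth was compared from 994 genes with 1 transcript and both values below 0.3 FPKM: for 84.8% of them the wn1 value over the wild-type value came within 0.5% of 1 common step multiplied by a quotient of whole numbers up to 6.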

Additional observations from a re-analysis of the deposited data

How the results depend on the processing

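No paired analysis was possible because there was 1 library per genotype. With no replicates, a difference was counted as changed when it moved by over 1.5-fold. None of the 10 members' differences did with a pseudocount of 0.1, centring on the median of all genes, or rescaling to nuclear or to nuclear protein-coding rows. These settings could move the members only slightly, since the rescaling factors were 1.004 and 1.015 and the median of all genes was 0.03. A minimum mean of 5 or 10 FPKM, or none, changes which genes are kept and leaves the members' values as they are. Rescaling to nuclear protein-coding rows left 9 of 10 members below 0, since KIN2 came to 0.00. With a 4-fold rule 0 members were lower, and over all genes 128 were lower and 72 higher, against 685 and 690 at 2-fold. With a 1.5-fold rule, added after the values were seen, 5 members were lower, and 1867 genes were lower and 2114 higher. Among genes with a mean of at least 10 FPKM, also added, 382 were lower and 423 higher, since fewer genes are tested. Division of each column by its full sum was not used as an alternative, because the plastid transfer RNA row ATCG00010 makes up 54.1% of the wn1 sum; it would move the median of all genes to -0.81. Total depth is unknown, so counting error was not estimated.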

Other observations

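The ABA receptors split by gene. Of 8 measured, with a median of 0.04, 2 were higher by 2-fold or more in wn1 and 1 was lower by as much. PYL8 had 92.2 FPKM in wn1 and 32.7 FPKM in wild type, and PYL4 had 32.3 and 13.5 FPKM in wn1 and wild type. PYL7 went the other way, with 6.04 FPKM in wn1 and 16.1 FPKM in wild type. Of 8 measured genes of ABA synthesis and breakdown, 7 lay within 2-fold. The exception was NCED3, which forms the ABA precursor, with 18.3 FPKM in wn1 and 69.5 FPKM in wild type, and ABA1, the most abundant, had 292 and 349 FPKM.

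The motifs that the COR genes share were also counted over the genome. Of 18261 measured genes with a window, members left out, the 4684 with a CRT/DRE core had a median log2 difference of 0.01 and the 8903 with neither core one of 0.04. Of the 6555 genes with an ABRE core 4.73% were at least 2-fold lower in wn1, and of those with neither core 3.0%. The 1881 genes with both cores had a median of -0.03, and 4.31% of them were at least 2-fold lower in wn1. The 532 genes with 3 or more ABRE cores had a median of -0.09, and 9.21% of them were at least 2-fold lower, against 3.57% of all 18261. Those with any ABRE core had a median of -0.005. Of the genes with a CRT/DRE core 3.33% were at least 2-fold lower, and of the 921 with 2 or more such cores 2.93% were. For the 708 genes with an evening element the share was 4.24%. These are descriptions of 2 libraries with no test.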
